A study of Homo sapiens with 2 samples.

Results

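The genes described here encode the plasminogen activators, the receptor that holds one of them on the cell surface, and inhibitors of both. The set was defined as all probe sets annotated to PLAT, PLAU, PLAUR, SERPINE2 or SERPINB2, each with both intensities and the log2 difference. The platform annotation named 8 probe sets for 4 of the 5 genes, out of 19775 genes named on the array. SERPINB2 is not analysed here, because the annotation used names no probe set for it. The 5 genes were chosen by their function with the intensities and log2 differences of both arrays already known, so their levels and differences below are a description.

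The study compared a CD2-positive with a CD2-negative subclone of HMC1, an established line of human mast cell leukaemia. Both came from a flow cytometric sort on surface CD2, an adhesion receptor that normal mast cells lack and neoplastic mast cells can carry. RNA of each subclone was hybridised to 1 U133 Plus 2.0 array, so each group held 1 sample of 1 subclone, no drug or stimulus is named for either, and no difference below has a replicate check, an error between cultures or a p-value. A subclone can differ from another for reasons other than the sorted marker, and here the marker and the subclone cannot be told apart. In a culture measured in bulk, fewer cells with a transcript and less of it per cell cannot be told apart either.

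Tissue-type plasminogen activator (tPA, encoded by PLAT) and urokinase (uPA, encoded by PLAU) are serine proteases that cut the inactive zymogen plasminogen into plasmin, which dissolves fibrin and digests matrix proteins. Urokinase works at the cell surface when bound to its receptor uPAR (encoded by PLAUR), while plasminogen and tPA bind surface proteins such as the complex of annexin A2 and S100A10. Serpins such as PAI-2 (encoded by SERPINB2) and protease nexin-1 (encoded by SERPINE2) trap the activators. Human mast cells are known as a source of tPA and as carriers of uPAR.

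In the CD2-positive subclone the tPA gene PLAT read lower and the receptor gene PLAUR slightly higher than in the CD2-negative subclone. PLAU was close to the detection limit and read higher by both of its probe sets, and SERPINE2 was at the level of transcripts that human RNA does not hold. Of the 4 named genes, 2 reached an intensity of 64 (log2 of 6) on the higher array, the floor used for comparing genes, and 1 of these, PLAT, was past 2-fold. Over all 3564 genes above the floor, 1.96% were past 2-fold in either direction, 0.758% at least 2-fold lower and 1.21% at least 2-fold higher. The count of 1 was fixed in part by the choice of the genes, and nothing is read from it.

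The promoter windows of the receptor gene and of its ligand gene are shown because both genes had a positive difference by every probe set. They run from 250 bases before to 50 bases after the annotated start, on the strand of the gene, and come from RefSeq on GRCh38.p14. Capitals mark matches to 3 short motifs, searched on both strands. They are the AP-1 site with the letters TGANTCA, the GC box with the letters GGGCGG, and the box for the core promoter factor TBP with the letters TATAAA. No 2 of the matches shown overlap. PLAUR lies on the minus strand of chromosome 19, with the window at chr19:43670120-43670419, and PLAU on the plus strand of chromosome 10. The table gives 2 starts for PLAU, and the one shown, at chr10:73910882-73911181, is the downstream start.
PLAUR: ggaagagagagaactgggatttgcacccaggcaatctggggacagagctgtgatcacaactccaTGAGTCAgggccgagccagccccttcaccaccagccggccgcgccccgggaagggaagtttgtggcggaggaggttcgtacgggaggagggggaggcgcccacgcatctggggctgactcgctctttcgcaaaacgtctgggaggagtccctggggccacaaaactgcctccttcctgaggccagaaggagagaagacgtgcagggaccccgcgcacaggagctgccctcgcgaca
PLAU: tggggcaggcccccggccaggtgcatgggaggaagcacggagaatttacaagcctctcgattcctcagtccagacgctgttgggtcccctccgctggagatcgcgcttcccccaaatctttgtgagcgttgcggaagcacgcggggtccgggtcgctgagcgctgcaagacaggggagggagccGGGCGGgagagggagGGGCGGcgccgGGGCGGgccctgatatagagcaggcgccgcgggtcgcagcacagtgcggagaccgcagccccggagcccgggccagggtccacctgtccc

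The PLAUR window held 1 AP-1 match, TGAGTCA, which begins 186 bases before the start, and no match to the GC box or the TBP box. The downstream PLAU window held 3 GC boxes, beginning 66, 51 and 40 bases before the start, and neither of the other motifs, and the upstream PLAU window held none of the 3. Among 35116 promoter windows of the same length, 7.71% held an AP-1 match, 45.0% a GC box and 11.5% a TBP box. A match describes the letters of the window and is not a measured binding site.

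Among the activators, PLAT read 59 on the CD2-positive array and 144 on the CD2-negative array. The CD2-positive value lay just under the floor of 64 and the CD2-negative value well above it. This is a log2 difference of -1.29, or a level 2.44-fold lower in the CD2-positive subclone. Rounding of the deposited values to whole numbers leaves an interval from -1.30 to -1.27 around that difference. Of the 3564 genes compared, 11 had a more negative difference than PLAT. The gene has 1 named probe set, 201860_s_at, whose suffix marks probes shared by several transcripts, so no second probe set of the gene was there to compare it with.

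The 20 nearest compared genes on chromosome 8 were read beside PLAT. Their median difference was -0.12 and 6 of the 20 were positive, against a median of -0.05 over all compared genes. The most negative of the neighbours was POLB, which encodes a DNA repair polymerase, at -0.69, so PLAT was more negative than each of the 20. Only 11 of the 3564 compared genes were more negative than PLAT, so almost any 20 genes would lie above it. A change of the whole region was not tested. The genes nearest to PLAT by their pair of log2 values, by Euclidean distance over the 2 arrays, were MDM2 at a distance of 0.19, MOSPD1 at 0.23 and ATF3 at 0.24. With 2 arrays such likeness means only similar values on both. MDM2, the ubiquitin ligase gene that restrains p53, read 61 on the CD2-positive array, against 127 on the CD2-negative array.

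The second activator gene, PLAU, read low on both arrays. Probe set 205479_s_at read 11 in CD2-positive cells, against 7 in CD2-negative cells, and probe set 211668_s_at read 11 in CD2-positive and 4 in CD2-negative cells. Both put the CD2-positive subclone higher, but the CD2-negative value of 4 equals the highest of 27 Bacillus control probe sets, which read 1 to 4 and stand for RNA that human cells do not contain. The log2 differences were 0.65, with a rounding interval from 0.49 to 0.82, and 1.46, with one from 1.22 to 1.72. Since that value of 4 was not above background, the size of the second difference is uncertain beyond rounding. The gap of 0.81 between the probe sets compares with a standard deviation of 0.38 for such gaps among 548 genes with at least 2 probe sets in that range (higher value of 8 to under 16). In the same range, 1.51% of 4166 probe sets were at least 2-fold higher in the CD2-positive subclone. With 16 added to both values before taking the log, which shrinks differences at low levels, the PLAU difference was 0.23. The 20 compared neighbours of PLAU on chromosome 10 had a median of -0.09, and 8 of them were positive.

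**Figure D1:**
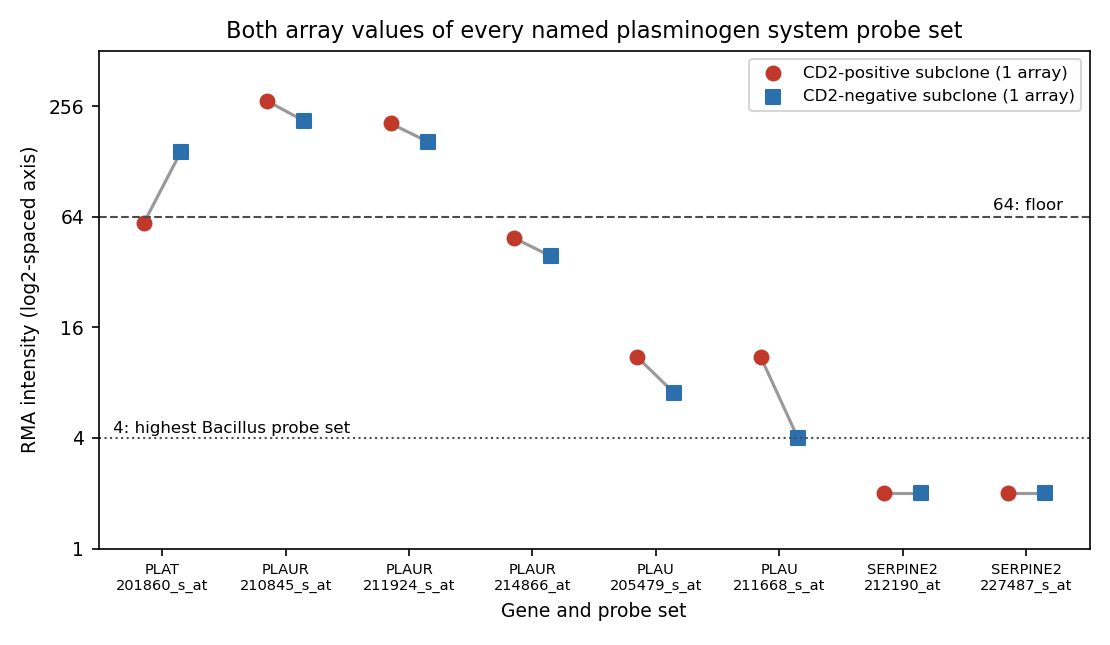
RMA intensity on a log2-spaced axis (vertical) for the 8 probe sets of the 4 named genes (horizontal), with the CD2-positive array as a circle and the CD2-negative array as a square, 1 array each and no error bars. PLAT is the pair in which the CD2-positive value is lower (59 against 144), all 3 PLAUR and both PLAU pairs have the higher value in the CD2-positive subclone, and both SERPINE2 pairs lie at 2.

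The receptor gene PLAUR was the best measured of the set, with 3 probe sets. Probe set 210845_s_at read 273 in CD2-positive cells, against 212 in CD2-negative cells, and 211924_s_at read 206 in CD2-positive cells, against 164 in CD2-negative cells. The third, 214866_at, which carries no suffix for shared probes, read 49 in CD2-positive cells, against 39 in CD2-negative cells, below the floor. Each put the CD2-positive subclone higher. The log2 differences were 0.36, 0.33 and 0.33, so the brightest was 1.29-fold higher in the CD2-positive subclone. The 3 probe sets lay within 0.04 of each other. Gaps between a gene's 2 brightest probe sets had a standard deviation of 0.18 among 937 genes with at least 2 probe sets over the floor. It was 0.29 among 1737 genes with at least 2 at a higher value of 16 to under 64, the range of the third probe set. These spreads describe probes on these 2 arrays and not cultures.

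The difference of PLAUR was well under 2-fold, and differences of its size were common among the genes compared. In all, 353 of the 3564 compared genes, or 9.91%, had a more positive difference, and the central 95% of compared genes lay between -0.68 and 0.70. Among 1114 genes with 3 or more probe sets reading at least 16 on the higher array, 26.8% had a positive difference in every one. Its 20 compared neighbours on chromosome 19 had a median of 0.02, and 10 of them were positive.

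The inhibitor gene SERPINE2 read 2 on both arrays by probe set 212190_at and again 2 on both by 227487_s_at. All 4 values lie within the range of the Bacillus probe sets, so no fold is given. At a value of 2, rounding alone leaves a log2 interval from -0.74 to 0.74, and a difference inside it could not have been seen. In total 40.1% of the 19775 genes had a representative probe set that read at most 4 on both arrays.

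**Figure D2:**
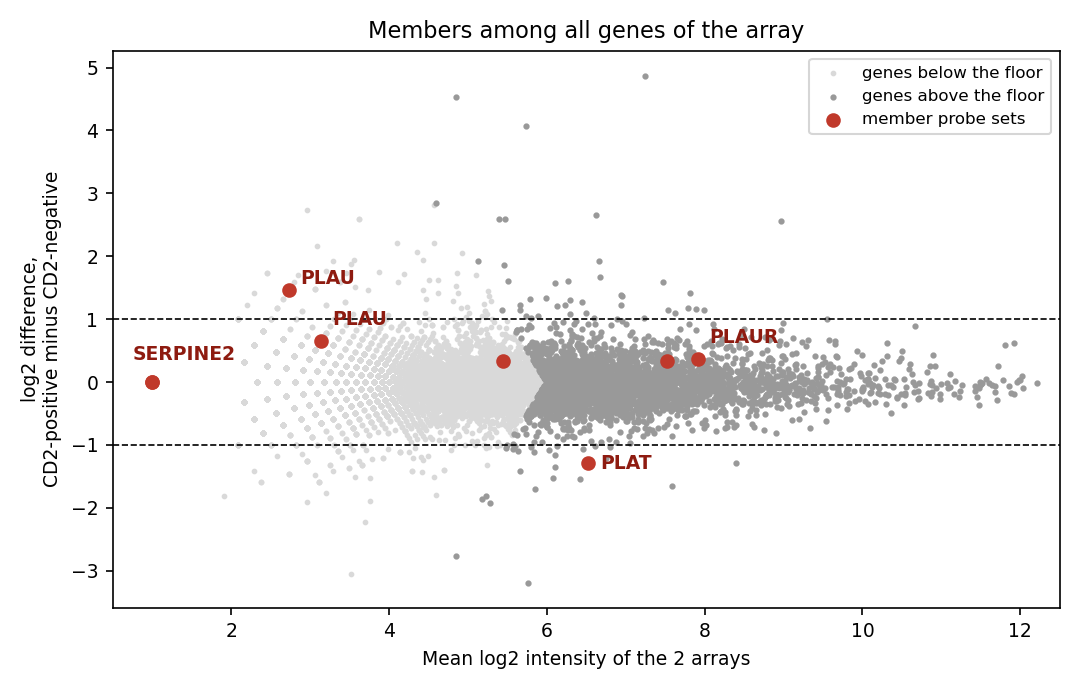
The log2 difference, CD2-positive minus CD2-negative (vertical), against the mean log2 intensity of the 2 arrays (horizontal), 1 point per gene; genes whose 2 values sum to 8 or less are not drawn, dashed lines mark 2-fold, and the large points are the 8 member probe sets. PLAT lies below the lower dashed line at -1.29, PLAUR above 0 inside the cloud of compared genes at 0.33 to 0.36, and PLAU and SERPINE2 lie at the low end, where whole-number values form visible rows.

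The other genes of plasminogen activation were mostly at background in both subclones. Of 12 further activators, zymogen and inhibitor genes, 10 were named on the array, none reached the floor, and 7 read at most 4 on both arrays. Among all 19775 named genes, 3564 reached the floor and 40.1% read at most 4 on both arrays. The plasminogen gene PLG, made mainly in the liver, read 4 in CD2-positive cells, against 3 in CD2-negative cells by its representative probe set. SERPINI1, which encodes neuroserpin, an inhibitor of tPA, read 8 on the CD2-positive array and 11 on the CD2-negative array, a log2 difference of -0.46 with a rounding interval from -0.62 to -0.30. PLAT and PLAUR were thus the genes of activators, their receptor and their named serpin inhibitors that reached the floor.

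Clade B serpins, the family of SERPINB2, had 11 of 12 further members named on the array. Of these, 9 read 4 or less on both arrays, where 40.1% of all named genes did. SERPINB8 is counted both here and among the inhibitors above. SERPINB1, which encodes an inhibitor of neutrophil elastase-type proteases, was the one above the floor. It read 274 in CD2-positive cells, against 175 in CD2-negative cells, a log2 difference of 0.65. Its 4 probe sets gave differences from 0.50 to 0.82, all in the same direction and all under 2-fold.

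Among genes of plasminogen receptors, 6 of 10 were above the floor. Of these 5 had a positive and 1 a negative difference, where 41.9% of all compared genes were positive. The median was 0.25, against -0.05 over all compared genes, and lay between GAPDH at 0.26 and HMGB1 at 0.25. The mean was 0.60, against -0.03 over all compared genes. It rests largely on ANXA2, since the next highest of the 6 was S100A10 at 0.38. ANXA2, for annexin A2, read 247 in CD2-positive cells, against 39 in CD2-negative cells, and was the list's member past 2-fold, at a log2 difference of 2.66. ANXA2 and PLAT, whose products bind each other, had differences of opposite sign. The difference rests on 3 of its 4 probe sets, all with the suffix for probes that can match other genes, while the fourth, which has no such suffix, read 2 on both arrays, within the Bacillus range. The pseudogene ANXA2P2, close in sequence to ANXA2, read 68 on the CD2-positive array, against 18 on the CD2-negative array (1.92), and the signals of gene and pseudogene cannot be told apart. S100A10, for the partner of annexin A2 that binds plasminogen, read 1632 in CD2-positive cells, against 1258 in CD2-negative cells (0.38). ENO1, for enolase, which binds plasminogen when at the surface, had 0.24 at 823 in CD2-positive cells, against 697 in CD2-negative cells. PLGRKT, a plasminogen receptor gene, was below the floor and lower, at 31 in CD2-positive cells, against 44 in CD2-negative cells (-0.51). Centred on the bacterial and phage hybridisation controls, which moves the median of all compared genes from -0.05 to 0.14, the median of this list was 0.44 and all 6 were positive, with H2BC12, a histone gene, at 0.02 in place of -0.16.

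The partners and clearance receptors of uPAR had 19 of 20 genes named, 2 of them above the floor. Of the 19, 8 read 4 or less on both arrays. That is close to the 40.1% over all named genes, and nothing is read from it. ITGB1, for the beta-1 integrin that associates with uPAR, read 453 in CD2-positive cells, against 397 in CD2-negative cells (0.19), a positive difference smaller than that of PLAUR. IL6ST, for the receptor chain gp130, had -0.25 at 304 in CD2-positive cells, against 361 in CD2-negative cells. Centred on the hybridisation controls the difference of each gene is higher by 0.18, which gives -0.07 for IL6ST and 0.37 for ITGB1. The difference of LRP1, for the receptor that takes up activators bound to inhibitors, was 0.00, with 13 on both arrays. Below the floor, the integrin gene ITGAV read 43 in CD2-positive cells, against 22 in CD2-negative cells (0.97). LRP8, a receptor of the same family as LRP1, had 3 probe sets between 0.42 and 1.16, all positive. ITGAV and LRP8 were chosen for mention after their values were seen.

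**Figure D3:**
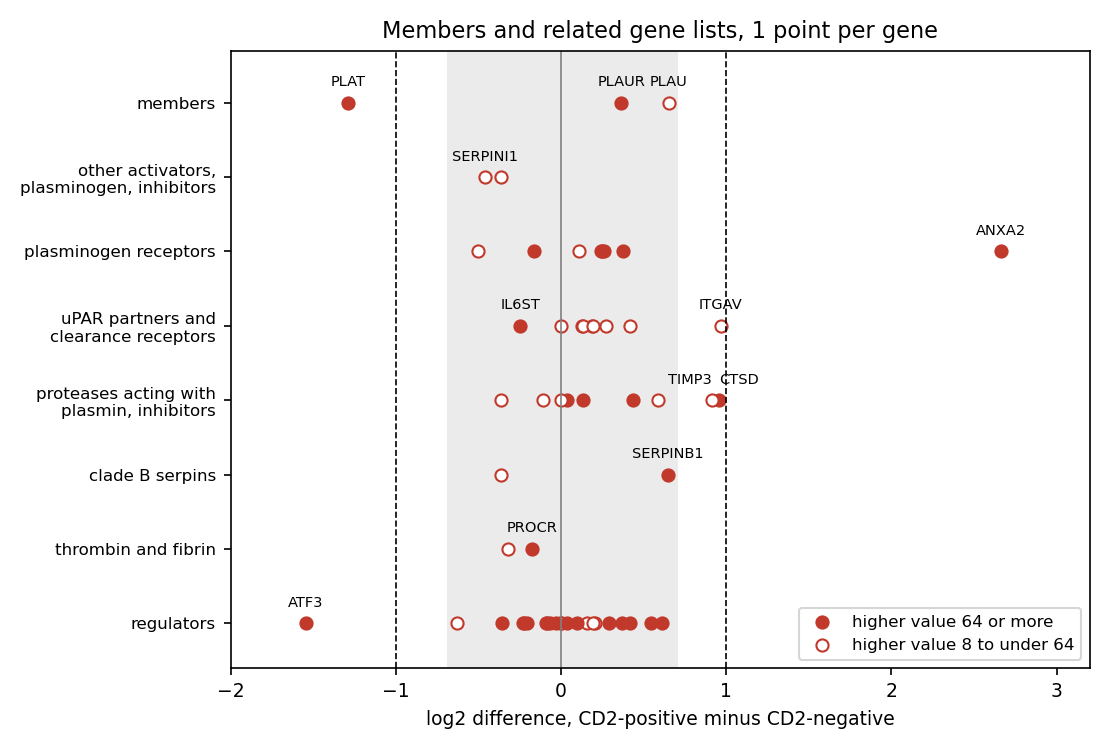
The log2 difference, CD2-positive minus CD2-negative (horizontal), of the members and of genes in 7 related lists (rows), 1 point per gene whose higher value was at least 8; filled points reached the floor of 64, the grey band is the central 95% of the compared genes (-0.68 to 0.70) and dashed lines mark 2-fold. PLAT, ATF3 and ANXA2 lie outside the dashed lines, and PLAUR lies inside the band.

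Proteases that act with plasmin, and their inhibitors, had 4 of 15 genes above the floor, all with a positive difference and none past 2-fold. Among all compared genes 41.9% were positive and 1.96% past 2-fold. The median of the 4 was 0.28, against -0.05 over all compared genes. The smallest of the 4 differences were those of TIMP1 at 0.13 and CTSL at 0.04. Centred on the hybridisation controls, 1 of the 4, CTSD, was past 2-fold at 1.14. CTSD, for cathepsin D, lay farthest from 0 at 0.96, followed by CTSB, for cathepsin B, a protease that can activate pro-urokinase, at 0.44. CTSB read 119 in CD2-positive cells, against 88 in CD2-negative cells, and 4 of its 5 probe sets at 8 or more were positive. TIMP3, for a matrix-bound inhibitor of metalloproteinases, stayed below the floor but had 4 probe sets in 1 direction. They read 32, 24, 19 and 37 in the CD2-positive subclone, against 17, 14, 6 and 14 in the CD2-negative subclone. The log2 differences ran from 0.78 to 1.66, and 2 of the 4 were at least 2-fold higher, where 1.33% of 8117 probe sets with a higher value of 16 to under 64 were. TIMP3 was chosen for mention after its values were seen. The gelatinase gene MMP9 read 4 on both arrays.

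**Figure D4:**
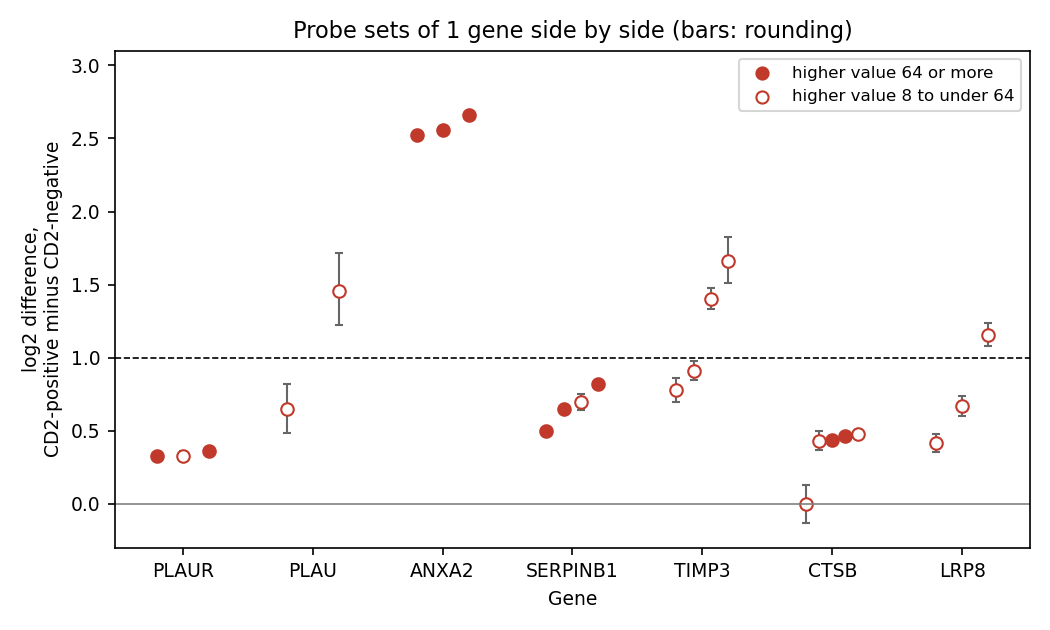
The log2 difference, CD2-positive minus CD2-negative (vertical), of each probe set with a higher value of at least 8, for 7 genes (horizontal); bars give the interval left by rounding and filled points reached the floor of 64. The 3 PLAUR probe sets lie between 0.33 and 0.36, the 2 of PLAU lie apart at 0.65 and 1.46, the 3 of ANXA2 lie between 2.52 and 2.66, and the 4 of TIMP3 between 0.78 and 1.66.

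Thrombin and fibrin genes had 1 of 16 named genes above the floor, PROCR, for the endothelial protein C receptor, at 117 in CD2-positive cells, against 132 in CD2-negative cells (-0.17). Centred on the hybridisation controls this value was 0.01. The fibrinogen genes, whose product plasmin degrades, were not above the floor. Of the 16 genes, 12 read at most 4 on both arrays, where 40.1% of all named genes did.

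Genes known to regulate the activator, receptor and inhibitor genes went both ways, with 7 of 14 genes above the floor positive and 7 negative and a median of 0.00, which became 10 positive and 4 negative and 0.18 when centred on the hybridisation controls. ATF3, for a stress-induced transcription factor, was past 2-fold and lower, at 50 in CD2-positive cells, against 146 in CD2-negative cells (-1.55). Among 7 AP-1 genes, whose protein products bind the letters marked in the PLAUR window, 4 were above the floor, with differences of 0.29 for JUND, 0.55 for FOSL2, -0.83 for FOSB and -0.09 for JUN, the last of which turned to 0.09 with that centring. FOSB is not in the list and was the most negative of the compared neighbours of PLAUR on chromosome 19, at 36 on the CD2-positive array, against 64 on the CD2-negative array. Below the floor, JUNB had -0.23, FOSL1 0.21, and FOS read 62 on both arrays, so the family had no common direction. HNRNPC, for a protein that binds PLAUR messenger RNA, had -0.35, at 467 in CD2-positive cells, against 597 in CD2-negative cells. REL, also in the list and below the floor, was lower by each probe set that read at least 16 on the higher array, at -0.64, -0.77 and -0.63. The relation of any of these genes to the PLAUR or PLAT values was not tested.

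The identity of the cells was read from marker genes. Of 11 named mast cell markers 9 were above the floor, and all 9 had a positive difference, where 41.9% of all compared genes were positive. Their differences ran from 0.05 to 2.56 with a median of 0.49, against -0.05 over all compared genes. Their sign was that of the PLAUR difference and opposite to that of PLAT. Of the 9 markers, 2 were at least 2-fold higher, CPA3 and HPGDS, and 7 were not past 2-fold. Among all compared genes 1.21% were at least 2-fold higher. The representative probe sets of all 11 summed to 10381 in CD2-positive cells, against 6815 in CD2-negative cells. Within these sums the probe set of the tryptase gene TPSAB1 gave 4806 in CD2-positive and 3142 in CD2-negative cells. That probe set carries the suffix for probes that can match other genes. The TPSAB1 probe set without that suffix, 216485_s_at, read 18 in CD2-positive and 19 in CD2-negative cells. The part of these markers in the PLAUR and PLAT values was not tested. All 11 named monocyte and macrophage markers, a cell type rich in PLAUR and SERPINB2, were at 4 or less on both arrays. Among all named genes this share was 40.1%. The 10 fibroblast and endothelial markers, from cell types known to make PLAT and SERPINE2, had 7 at 4 or less and none above 17, and the 8 named T and NK cell markers had none above 8. CD2 itself read 219 in CD2-positive cells, against 13 in CD2-negative cells. The summed intensity of the 54675 probe sets was 1860969 on the CD2-positive array, against 1875750 on the CD2-negative array.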

How the data were processed

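RNA of 2 HMC1 subclones was measured on 1 U133 Plus 2.0 array each. The deposited file holds an intensity per probe set, as linear whole numbers; per the submitters' processing notes the authors used RMA in Affymetrix Expression Console 1.1. The rounding was seen in the values, and for the type of background correction the sources used here give no detail; it would change low values and the folds against them. Quantile normalisation, a step of RMA, removes differences in total signal.

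Differences are log2 of the CD2-positive minus log2 of the CD2-negative value. Of 54675 probe sets, 41097 carried 1 symbol, 1801 several and 11777 none, and the last 2 kinds were not used for genes. Symbols were updated through Entrez identifiers (41043 of 41097 probe sets matched to RefSeq genes of assembly GRCh38.p14). The files name no genome build, and neighbouring genes were taken from the order in that table. The probe set with the larger mean of both log2 values stands for its gene. Rounding intervals take each deposited value as correct to the nearest whole number. The spread of probe sets is the standard deviation of the gap between a gene's 2 brightest probe sets in the range of values named. With 1 array per group no test was possible, and the number of arrays limits the precision.

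The members and lists were chosen with earlier results of these data known. Named were all member probe sets; CD2; in each list the members past 2-fold, or else the one farthest from 0 above the floor; SERPINI1, PLG, ANXA2, S100A10, ENO1, PLGRKT, LRP1 and ITGB1; and the 3 genes nearest to each member past 2-fold. ITGAV, LRP8, CTSB, CTSL, TIMP1, TIMP3, MMP9, GAPDH, HMGB1, H2BC12, REL, HNRNPC, ANXA2P2, TPSAB1, CPA3, HPGDS, FOSB and the other AP-1 genes were added after their values were seen. The alternatives were floors of log2 5, 7 or none, size rules of 1.5-fold and 3-fold, the mean of a gene's probe sets, plain identifiers, centring on all probe sets or on 18 hybridisation controls, lowess with a span of 0.3, and 16 added before log2. Python 3.11.15, numpy 2.4.6, pandas 2.3.3 and statsmodels 0.14.6 were used.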

Additional observations from a re-analysis of the deposited data

How the results depend on the processing

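PLAT was the member past the size rule under each alternative except 3-fold and plain identifiers, where the count of members was 0, since PLAT was 2.44-fold lower and its probe set carries a suffix. Centred on the hybridisation controls, the differences were -1.10 for PLAT, 0.83 for PLAU, 0.55 for PLAUR and 0.18 for SERPINE2, the last of these at background. With 16 added they were -1.09 for PLAT and 0.23 for PLAU, and with the mean of its probe sets PLAU was at 1.06. The direction of PLAUR was kept under each alternative run, and that of PLAT under each one that had a value for it. Most of the alternatives could not have changed it. The floors, the size rules, the added 16 and the centring on all probe sets, with a median of 4 on both arrays, cannot reverse a sign. For PLAT, with 1 probe set, the mean of probe sets cannot either. The count of all genes past the rule was 70, and became 125 at a floor of log2 5, 32 at log2 7, 687 with no floor, 39 with the mean of all probe sets, 37 with plain identifiers, 45 with 16 added, 285 at 1.5-fold and 22 at 3-fold. The share of higher calls was 61.4% as reported, 83.5% centred on the controls, 75.0% at a floor of log2 7 and 44.7% with no floor. List medians centred on the controls were 0.44 for plasminogen receptors, 0.15 for uPAR partners, 0.47 for proteases, 0.83 for clade B serpins, 0.0082 for thrombin and fibrin genes and 0.18 for regulators; those of uPAR partners (-0.03) and thrombin and fibrin genes (-0.17) had been negative. At a floor of log2 5 the median was 0.16 for uPAR partners and 0.44 for proteases, and with the mean of probe sets 0.13 for proteases. More and dimmer genes enter at the lower floor; other causes were not tested. No paired analysis was possible because each group held 1 array. Values near 4 cannot be told from background, which limits PLAU and SERPINE2.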
